A study of Mus musculus with 22 samples.

Results

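NIH/3T3 cells, an established mouse fibroblast line, carried either a stably integrated, doxycycline-inducible E2F1 construct (the E2F1 line) or that system with an empty vector (the EV line). Cells of either line rested in 0.25% serum over 48 h before doxycycline was added at 500 ng/ml, and a further EV arm received 10% serum in its place. The comparison described here sets the E2F1 line after 12 h of doxycycline (2 libraries) against the same line at 0 h (2 libraries), which is 4 of the 22 libraries of polyadenylated RNA. All 11208 genes of the deposited table of normalized counts were tested, and the description covers genes outside the cell cycle: stress and death pathways, signalling, matrix, metabolism and the genes that fell most. The EV line at 0 h and after 12 h of doxycycline (2 libraries each) carried the same system without E2F1 and measured the drug and the further 12 h in low serum. The labels do not say whether each line is 1 clone or a pool, and name each replicate by its number only, so p-values measure the spread between these libraries, which may be technical. With bulk RNA, fewer cells expressing a gene and less RNA per cell cannot be told apart.

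E2F1 is a transcription factor that is held inactive by the retinoblastoma protein in resting cells and drives the genes of DNA replication when it is released. It is also known for target genes outside replication, among them genes of apoptosis and of the p53 pathway. A fibroblast resting in low serum keeps FOXO factors active, secretes and assembles matrix, and expresses a set of growth-restraining genes that growth factors shut off.

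Totals ran from 34014608 to 46057140 normalized counts over the 22 libraries and from 34043429 to 35695886 over the 4 compared here. The median gene differed between replicates by 0.116 at 0 h and by 0.128 at 12 h on the log2 scale. The mouse E2f1 gene rose from 1703 and 1637 normalized counts at 0 h to 2683 and 2845 at 12 h (log2 change 0.73, SE 0.11, adjusted p 1.65e-05 by limma). Whether reads of the construct count under this gene is not given in the sources used here. The summed level of 79 S phase genes was 134889 and 121903 at 0 h and 457523 and 468213 at 12 h, a rise that goes with every change below and whose part in them was not tested. Before doxycycline the same sum was 75923 and 107250 in the EV line, below the E2F1 line. Of 14 fibroblast markers 13 were measured, while 0 of 8 endothelial and 0 of 9 skeletal muscle markers were in the table, and of 10 immune markers only Csf1r was, summing to between 67 and 168 per library in the 4 libraries. In 7 genes at least 8-fold apart between the lines, the EV 2 h libraries lay at a median of 0.39 and 0.463 of the way to the E2F1 line. Those libraries enter no contrast here, and without the 2 h libraries of both lines the 12 h comparison called 6758 genes against 6898 with them.

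How far the change reached beyond the cell cycle was the first question. Limma called 6898 of 11208 genes at an adjusted p of at most 0.05 (61.5% called), 3569 higher (31.8%) and 3329 lower (29.7%). At least a 2-fold change was called in 1193 genes that rose (10.6%) and 609 that fell (5.43%), and 1038 of the 1193 were outside both cell cycle lists. Those lists hold only 79 and 88 genes, so the 1038 still include unlisted cell cycle genes, such as Esco2. Log2 changes and the 2-fold minimum are on the scale of log2(normalized count + 1), which understates the change of low genes. Folds printed beside a gene's log2 change are ratios of mean normalized counts. The same 12 h in the EV line gave 467 calls (4.17%), 84 higher (0.749%) and 383 lower (3.42%), of which 12 (0.107%) and 158 (1.41%) changed at least 2-fold. The EV count rested on single libraries: it was 26 without EV 0 h replicate 2, 803 without EV 0 h replicate 1 and 75 without EV 12 h replicate 1. The difference between the 2 changes, E2F1 line minus EV line, was called in 5665 genes (50.5%), 3059 higher (27.3%) and 2606 lower (23.3%), of which 1340 (12%) and 779 (6.95%) were at least 2-fold. Of the 609 genes that fell at least 2-fold, 530 were called lower in that difference, and of the 1038 that rose, 1019 were called higher in it. Both sets were chosen by the E2F1 change, which is part of that difference, so the choice favours such calls. The same holds for genes named below by the size of their change. In the EV line itself 85 of the 1038 (8.19%) had 12 h means at least 2-fold below 0 h, against 1.87% of all genes, and 768 had means below 0 h. The balance between rises and falls depends on the scaling. Quantile normalization, which shifts the median log2 change of all genes from -0.016 to -0.111, gave 3131 higher and 4122 lower in the E2F1 line and 2659 higher and 3457 lower in the difference. Each gene list below is therefore to be read against both shares of all genes, 31.8% higher and 29.7% lower.

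The genes that fell most at 12 h outside the cell cycle were led by Dhtkd1, Angptl7 and Tcp11l2. Dhtkd1, a mitochondrial enzyme of lysine breakdown (ENSMUSG00000025815.13, chromosome 2, 5896115 to 5942792, GRCm38), stood at 161 and 238 normalized counts at 0 h, 51 and 94 at 6 h and 19 and 39 at 12 h. All 12 h values lay below the 0 h values, a 6.88-fold lower mean (log2 change -2.80, SE 0.33, adjusted p 7.99e-07 by limma), while the EV line stayed between 182 and 198 before and after the drug. The secreted protein gene Angptl7 (chromosome 4, 148495183 to 148500460) went from 164 and 142 to 18 and 30 (log2 change -2.66, SE 0.52). Tcp11l2 (chromosome 10, 84576626 to 84614359) went from 1467 and 1544 through 626 and 820 at 6 h to 203 and 293, and was at 2914 and 2788 in the EV line after 12 h.

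Mxd4, Pdcd4 and Pdk2 were among the 15 largest falls. Mxd4, which encodes a MAX partner that opposes MYC, fell from 5859 and 6202 to 1147 and 1387 normalized counts (log2 change -2.26, SE 0.17), against 6739 and 7228 in the EV line at 12 h. Pdcd4, an inhibitor of translation initiation, fell from 3257 and 3760 to 710 and 912 (log2 change -2.12, SE 0.14). Pdk2, a kinase that switches off pyruvate dehydrogenase, fell from 551 and 631 to 137 and 117 (log2 change -2.21, SE 0.18). The 6 h libraries of all 3 lay between those of 0 h and 12 h. Ranbp3l, Ppp1r3b, Catip, Cldn19, Tcea3, Gm50321, Bdh2, Slc16a9 and Cela1 complete the 15 largest falls, with log2 changes from -2.46 to -2.11. The difference from the EV line was called lower in 14 of the 15, which their choice by the E2F1 change favours. For Ranbp3l that difference was -1.36 (adjusted p 0.436 by limma). Ranbp3l was not called without E2F1 0 h replicate 1 (adjusted p 0.231), E2F1 12 h replicate 2 (0.216) or the 2 h libraries (0.0549), nor Ppp1r3b without E2F1 12 h replicate 2 (0.125). Exons of Dhtkd1, Cldn19, Mxd4 and Slc16a9 overlap other annotated genes, and so do those of 55 of the 190 genes chosen for naming, these 4 included. The use of strand in the counting is not given in the sources used here, so values of such genes are uncertain.

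A pair of falls was singled out after the values were seen. The nuclear long noncoding RNA Neat1 (chromosome 19, 5824708 to 5845478), the scaffold of paraspeckles, fell from 15855 and 15161 normalized counts to 3648 and 3531 (log2 change -2.11, SE 0.14, adjusted p 8.1e-10 by limma). Kdm5b, which encodes a histone demethylase, fell from 3855 and 4164 to 1029 and 993 (log2 change -1.99, SE 0.12). Neither was called in the EV line, where their log2 changes were -0.29 (adjusted p 0.301) and 0.28 (adjusted p 0.229).

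The largest rises outside the cell cycle lists were led by Ptpru, Neurl1b and Grhl1, each at 18 or fewer normalized counts in both 0 h libraries. Ptpru, a receptor tyrosine phosphatase of epithelia (ENSMUSG00000028909.17, chromosome 4, 131768457 to 131838288), stood at 18 and 15 normalized counts at 0 h, 541 and 417 at 6 h and 912 and 995 at 12 h, 57.8-fold higher in the mean (log2 change 5.77, SE 0.93, adjusted p 3.37e-05 by limma). Neurl1b, a ubiquitin ligase for Notch ligands (chromosome 17, 26414829 to 26446349), went from 10 and 18 to 738 and 720, and Grhl1, a transcription factor of surface epithelia (chromosome 12, 24572283 to 24617391), from 18 and 14 to 555 and 408. These 3 genes were at most at 28 in the EV line after 12 h. Grhl1 was higher at 6 h (1573 and 1270) than at 12 h, as were Nanos1, Slc35g1, Nxph3, Skida1, Eepd1 and Nr4a3 in their libraries, whereas Esco2, which acetylates cohesin in S phase, went from 1351 and 1102 at 6 h to 5354 and 4774 at 12 h. C530008M17Rik, Fam161a, Mlf1, Ndst3 and Mns1 complete the 15, with log2 changes down to 3.38. For all 15 the difference from the EV line was called higher, which their choice by the E2F1 change favours.

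**Figure D1:**
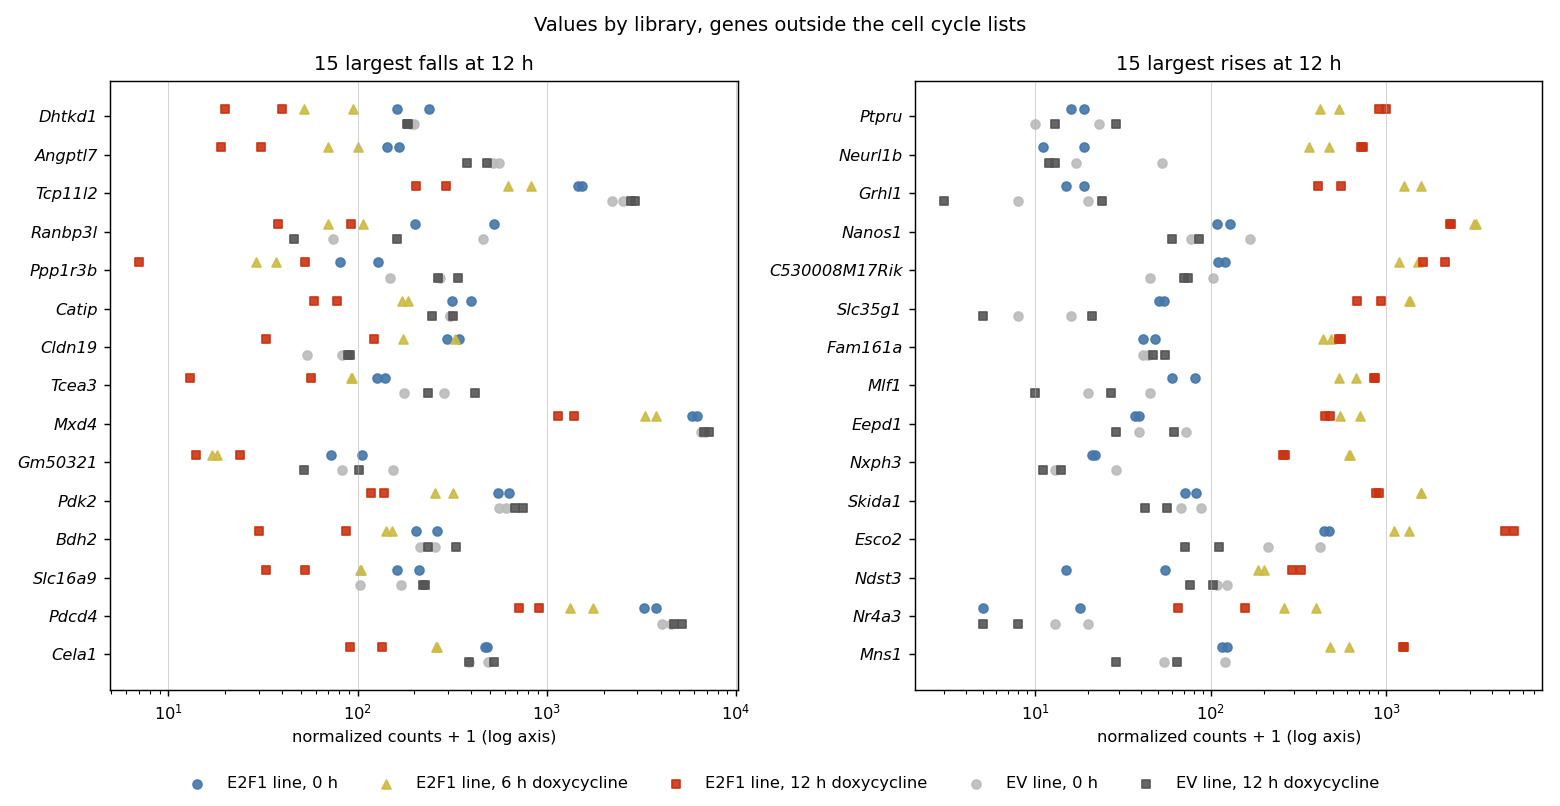
Normalized counts plus 1 on a log axis for the 15 largest falls and the 15 largest rises outside the cell cycle lists, each point 1 library: E2F1 line at 0, 6 and 12 h (upper row of each gene) and EV line at 0 h and after 12 h of doxycycline (lower row). The red squares of the E2F1 line at 12 h stand apart from its blue 0 h circles, as the choice of these genes required, and most EV squares stay with the EV circles.

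The bases before the start sites are shown for the 3 largest rises and 3 largest falls, as the sequence next to the start of the genes that changed most. The stretches are from RefSeq (GRCm38.p6), run 5′ to 3′ on the gene's strand from base 100 before the RefSeq start, and end there or where GENCODE M21 places the gene's first exon. Those of the rising genes are Ptpru, chr4:131838289-131838378, minus strand; Neurl1b, chr17:26414759-26414828, plus strand; and Grhl1, chr12:24572187-24572282, plus strand. Those of the falling genes are Dhtkd1, chr2:5942793-5942892, and Angptl7, chr4:148500463-148500562, both minus strand; the window of Tcp11l2 lies inside one of its annotated exons and is not printed.
Ptpru: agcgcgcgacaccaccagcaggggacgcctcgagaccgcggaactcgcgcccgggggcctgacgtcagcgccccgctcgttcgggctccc
Neurl1b: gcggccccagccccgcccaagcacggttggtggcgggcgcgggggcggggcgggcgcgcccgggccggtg
Grhl1: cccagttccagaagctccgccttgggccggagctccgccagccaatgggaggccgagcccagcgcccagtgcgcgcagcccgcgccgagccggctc
Dhtkd1: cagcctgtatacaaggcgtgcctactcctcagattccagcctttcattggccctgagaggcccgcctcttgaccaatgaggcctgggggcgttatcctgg
Angptl7: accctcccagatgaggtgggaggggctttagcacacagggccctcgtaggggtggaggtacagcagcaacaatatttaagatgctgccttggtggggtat
The letters TTCCCGC and TTGGCGC, which are cores of E2F sites, were sought on both strands in each window of 300 bases (250 before to 50 after the start). They occur in 13.3% of the 8692 promoters that matched a measured gene. Only the first RefSeq entry of a gene was searched, and some genes have more, such as Grhl1 with 2 and Egr2 with 5. Of the 300-base windows of these 5 genes, that of Neurl1b holds 1 match, upstream of the stretch printed, and the others hold none, which says only that these letters are not there.

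Among list members changed at least 2-fold and with an entry, 9 of 30 rises and 7 of 58 falls have a match in the 250 bases before the start. These counts are a description with no test. The share of all genes above is for windows of 300 bases, and that for these 250 bases is not given here. The 3 largest rises and 3 largest falls among list members whose match and the bases around it lie outside the gene's own exons were chosen after their values were seen, and matches are in capitals; Psmb9 (2.77) is left out because those bases overlap an exon of its own. They are Neurl1b (log2 change 5.66, chr17:26414663-26414709, plus strand), Tigar (2.52, chr6:127109664-127109710, minus strand, inside an exon of the noncoding gene Platr31), Map2 (2.12, chr1:66175214-66175260, plus strand), Egr2 (-1.39, chr10:67535280-67535326, plus strand), Arrdc4 (-1.34, chr7:68749328-68749374, minus strand) and Fosb (-1.28, chr7:19310122-19310168, minus strand).
Neurl1b: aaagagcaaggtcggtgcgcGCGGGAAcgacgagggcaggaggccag
Tigar: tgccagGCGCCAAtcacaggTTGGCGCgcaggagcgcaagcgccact
Map2: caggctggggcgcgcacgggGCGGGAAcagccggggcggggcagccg
Egr2: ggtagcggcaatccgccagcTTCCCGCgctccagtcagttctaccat
Arrdc4: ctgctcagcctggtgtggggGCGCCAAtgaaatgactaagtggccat
Fosb: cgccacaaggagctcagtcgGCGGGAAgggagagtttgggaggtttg
Match shares of all rising and all falling genes were not compared here, because only 77.6% of the measured genes have an entry in the promoter table. Whether matches go with the direction of change was not tested. Egr2 was not called without E2F1 0 h replicate 2 (adjusted p 0.132).

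Most of the stress lists held both rises and falls, while p53 targets mostly rose and NF-kappaB feedback genes mostly fell. Over all genes 31.8% rose and 29.7% fell, so a list that holds both is not set apart by that. In the ATF4 response, which answers amino acid shortage and other stress through the kinases of the integrated stress response, 5 of 28 measured genes rose and 7 fell, with a median log2 change of 0.00 against -0.02 over all genes. Atf4 itself stood at 9457 and 7687 at 0 h and 9497 and 8250 at 12 h (log2 change 0.05, adjusted p 0.658), and the effector Ddit3 at 742 and 716, then 645 and 505 (adjusted p 0.162). The rises were led by genes of folate and amino acid supply: Mthfd2, the mitochondrial folate enzyme, from 1763 and 1026 to 5743 and 4939 (log2 change 1.98, SE 0.21), and the cationic amino acid transporter Slc7a1, from 2797 and 2611 to 9051 and 7890 (1.64, SE 0.16). Ppp1r15a, which recruits a phosphatase to end the response, fell from 949 and 1018 to 473 and 424. Trib3 was at 207 and 224, then 144 and 153 (adjusted p 0.206), but rose in the EV line from 82 and 104 to 312 and 259, and the difference of its changes, E2F1 minus EV, was -2.15 (adjusted p 0.00181 by limma). In this difference 5 ATF4 genes were higher and 9 lower. Without E2F1 12 h replicate 1 or E2F1 0 h replicate 2, or under quantile normalization, 3 ATF4 genes rose.

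The unfolded protein response of the endoplasmic reticulum was split as well, with 8 of 25 genes higher and 9 lower (median -0.07). These shares, 32.0% and 36.0%, lie near the 31.8% and 29.7% of all genes. Xbp1, the transcription factor whose messenger is spliced by IRE1, fell from 3841 and 3453 to 1279 and 1291 normalized counts (log2 change -1.50, SE 0.09, adjusted p 5.38e-10 by limma), with 2409 and 2435 at 6 h. The chaperones Hspa5 (-0.59, adjusted p 0.00142) and Calr (-0.93, adjusted p 4.93e-07) fell too. Edem1, which delivers misfolded glycoproteins for degradation, rose from 3113 and 2861 to 6122 and 5782 (1.00, SE 0.15), and the co-chaperone Dnajc3 rose by 0.80. Both chaperones stood higher after serum: at 12 h of it Calr was at 80505 and 92578 in the EV line, against 42273 and 47439 at 0 h, and Hspa5 at 44448 and 44970 against 25674 and 29493.

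In the heat shock list 6 of 19 genes rose and 5 fell (median 0.12). These shares, 31.6% and 26.3%, lie near the 31.8% and 29.7% of all genes. One gene stood far from the rest: Hsp90aa1, the stress-inducible cytosolic HSP90 (chromosome 12, 110690605 to 110702728), rose from 18858 and 15871 normalized counts to 83181 and 74992 at 6 h and 90726 and 80780 at 12 h, 4.94-fold (log2 change 2.31, SE 0.11, adjusted p 1.98e-11 by limma). Its EV libraries at 12 h were at 16720 and 15349. The transcription factor Hsf1, which drives the list, was at 2197 and 2076, then 2145 and 2023 (adjusted p 0.782). The co-chaperones Stip1 (0.75) and Dnajb1 (0.96) rose. The small heat shock protein gene Cryab changed by -0.78, but by -0.56 and not called without E2F1 0 h replicate 1, where fewer of the list fell.

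Antioxidant genes under NRF2 moved both ways, 36.0% higher and 40.0% lower, against 31.8% and 29.7% of all genes. Of genes for glutathione synthesis and recycling, Gclc rose from 980 and 797 to 3459 and 2670 (log2 change 1.78, SE 0.25), Gclm from 3624 and 2744 to 7109 and 5659 (1.01, SE 0.17) and glutathione reductase Gsr from 1749 and 1410 to 3878 and 3156 (1.16, SE 0.18). The glutathione transferase Gsta4 fell from 2304 and 1703 to 1051 and 801 (-1.11, SE 0.21). Over the list 9 of 25 rose and 10 fell (median -0.13), with 6 falls without E2F1 12 h replicate 1 and 5 without E2F1 0 h replicate 1. Hmox1 (log2 change -0.40, adjusted p 0.513) and Nqo1 (0.49, adjusted p 0.059) were not called, and Hmox1 replicates at 0 h were far apart, at 2216 and 1064.

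The p53 targets were the list with the largest share of rises outside the cell cycle among lists with 10 or more measured members: 13 of 24 rose (54.2%, against 31.8% of all genes) and 3 fell, with a median of 0.30. Cdkn1a, the p21 inhibitor of cyclin-dependent kinases (chromosome 17, 29090976 to 29100727), rose from 3066 and 2954 to 13789 and 12293 at 6 h and 15754 and 14293 at 12 h, 4.99-fold (log2 change 2.32, SE 0.10, adjusted p 1.2e-11 by limma). Its EV libraries were at 2128 and 2064, then 2820 and 2298. Tigar, which lowers fructose bisphosphate levels and so slows glycolysis, rose from 98 and 91 to 1244 and 994 at 6 h and then stood at 580 and 512 (2.52, SE 0.22). Trp53 itself rose by 0.47 (SE 0.08), its ubiquitin ligase Mdm2 by 0.53 (SE 0.09), the death receptor Eda2r by 1.33 (SE 0.22) and the lesion-bypass polymerase Polk by 1.13 (SE 0.16). The difference from the EV line was called higher in 11 of the 24 and lower in 1, and 0 of them were called in the EV line. At 6 h the median log2 change of the list was -0.10, and Eda2r stood at 565 and 509, against 738 and 611 at 0 h. Under quantile normalization 10 of the list rose and 4 fell at 12 h.

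Among 26 apoptosis genes 11 rose and 7 fell (median 0.19), 42.3% and 26.9% against 31.8% and 29.7% of all genes. The apoptosome scaffold Apaf1 rose from 1568 and 1532 to 2587 and 2427 (log2 change 0.69, SE 0.11, both 12 h libraries above both 0 h libraries), and cytochrome c, Cycs, from 1888 and 1578 to 4184 and 4262 (1.29, SE 0.12). The protective gene Bcl2 rose as well, from 428 and 544 to 1276 and 942 (1.18, SE 0.21). Apaf1 was at 1664 and 1530 at 6 h, near its 0 h level. The BH3 gene Bmf changed by -1.52, a call lost without E2F1 12 h replicate 1 (adjusted p 0.121) or E2F1 0 h replicate 2 (0.0651), and without the latter 4 genes of the list fell. Trp73, a known E2F1 target, is not analysed here.

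Of 21 measured interferon-stimulated genes 4 rose and 8 fell (median -0.36), and 2 of the rises were at least 2-fold. The shares were 19.0% and 38.1%, against 31.8% and 29.7% of all genes. Psmb9, a catalytic subunit of the immunoproteasome whose exons overlap Tap1 (chromosome 17, 34181987 to 34187764), rose from 128 and 158 to 854 and 1118 (log2 change 2.77, SE 0.47). Cgas, the sensor of cytosolic DNA, rose from 472 and 449 to 2407 and 2155 (2.30, SE 0.17). Isg20, an exonuclease, fell from 995 and 1019 to 449 and 490 (-1.10, SE 0.15).

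NF-kappaB feedback genes, chiefly inhibitors and subunits that the factor itself induces, fell in 8 of 14 cases and rose in 2 (57.1% lower against 29.7% of all genes, median -0.56). Nfkbie fell from 644 and 738 to 222 and 249 (log2 change -1.55, SE 0.22), Bcl3 from 607 and 568 to 267 and 292, Birc3 from 560 and 537 to 254 and 302 and the p100 gene Nfkb2 from 7594 and 8429 to 4177 and 4785. Nfkb2 stood at 6497 and 5839, then 8029 and 7928, in the EV line, where 2 genes of the list were called higher, and 8 of the 14 were called lower in the difference. Without E2F1 12 h replicate 1 or E2F1 0 h replicate 2, 1 gene of the list rose.

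**Figure D2:**
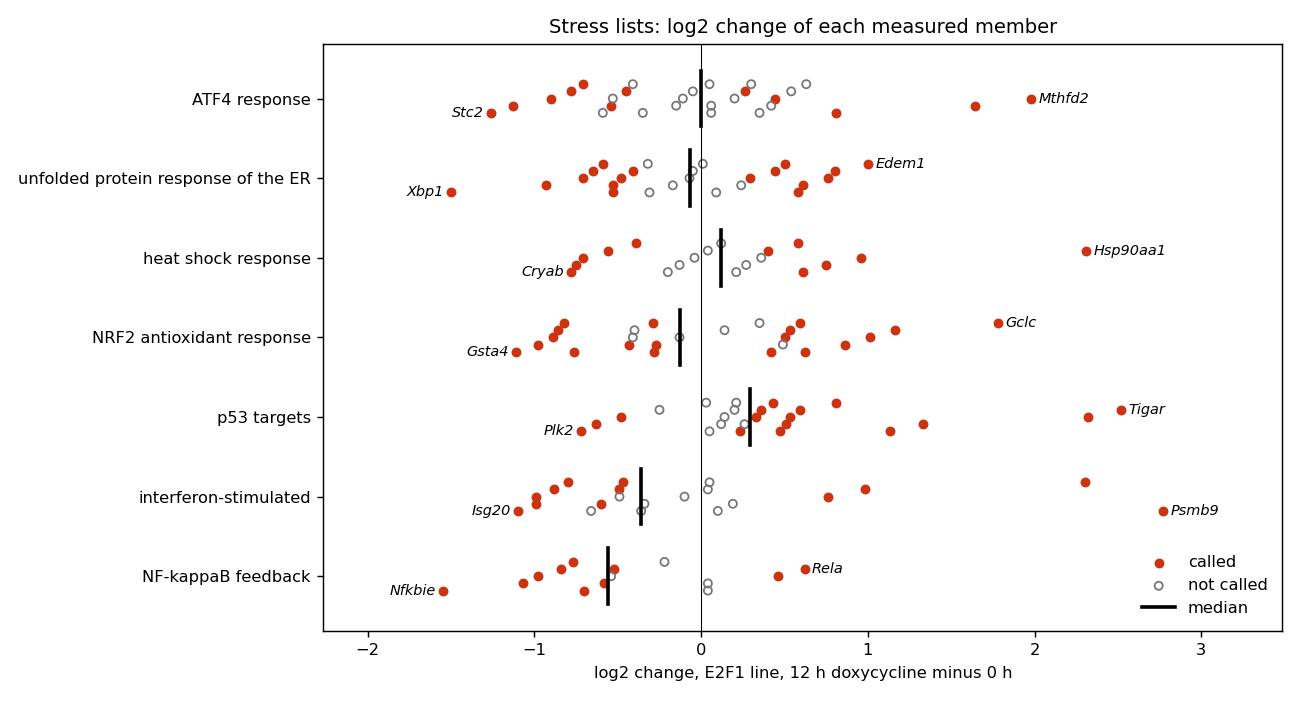
Log2 change from 0 to 12 h of doxycycline in the E2F1 line, 1 point per measured gene of 7 stress lists; filled points passed an adjusted p of 0.05, black bars are list medians, and the lowest and highest member of each list are labelled (Plk2 and Rela on that ground alone). The p53 targets lie mostly to the right of 0 and the NF-kappaB feedback genes mostly to the left, while the other lists straddle 0.

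In lists of the resting state falls outnumbered rises. FOXO factors hold a starved cell in a program of nutrient sparing that insulin and growth factors switch off. Of 25 such genes 20 fell and 2 rose (80.0% lower, median log2 change -0.66), and 16 were called lower in the difference from the EV line, where 0 were called and the median was 0.20. Besides Pdk2, the muscle-wasting ubiquitin ligase Fbxo32 fell from 599 and 671 to 208 and 191 normalized counts (-1.66, SE 0.15), the PI3-kinase inhibitor Pik3ip1 from 1136 and 1413 to 356 and 473 (-1.62, SE 0.18) and the growth factor Igf1 from 1648 and 1465 to 528 and 580 (-1.49, SE 0.19). Ccng2, an atypical cyclin of resting cells, fell from 1896 and 1754 to 852 and 947 and was lower still at 6 h, at 617 and 768. Txnip, which limits glucose uptake, changed by -0.83, a call lost without E2F1 12 h replicate 1 (adjusted p 0.12) or E2F1 0 h replicate 2 (0.104). Foxo1 rose, from 595 and 651 to 926 and 843 (0.50, SE 0.14). The highest log2 change in the FOXO list was 1.1, and 7 of its falls and 1 of its rises were at least 2-fold.

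Lysosome and autophagy genes, which FOXO and TFEB factors support, fell in 14 of 40 and rose in 8 (median -0.16), and the share that fell was near the 29.7% of all genes. The LC3 gene Map1lc3b fell from 5563 and 5234 to 2542 and 3008 (log2 change -0.96, SE 0.09) and its relative Gabarapl1 from 4049 and 3581 to 1996 and 1730 (-1.03, SE 0.11), while the kinase Ulk2 rose from 3170 and 3253 to 6224 and 5878 (0.91, SE 0.10). Rises numbered 5 without E2F1 0 h replicate 2.

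Of 15 clock genes 8 fell and 1 rose (53.3% and 6.7%, against 29.7% and 31.8% of all genes, median -0.81). The output factors Dbp (-1.69, SE 0.39) and Tef (-1.16, SE 0.13), the repressor Bhlhe40 (-1.13, SE 0.25) and Per1 (-0.99, SE 0.18) fell, Dbp from 272 and 472 normalized counts to 88 and 139. Nr1d1, the REV-ERB alpha gene, was at 402 and 369, then 315 and 167 (adjusted p 0.0739). Per2 changed by -0.91 but was not called without E2F1 12 h replicate 2 (adjusted p 0.142). The difference from the EV line was called lower in 5 of the 15.

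The 19 measured complement genes and other secreted proteins of resting fibroblasts included 12 that fell and 1 that rose (63.2% and 5.3%, median -0.68). The leucine-rich proteoglycan Ogn fell from 3048 and 3757 to 995 and 1493 (log2 change -1.47, SE 0.23), the IGF-binding protein Igfbp4 from 2736 and 1946 to 814 and 1023 (-1.34, SE 0.16) and the microfibril protein Mfap5 from 2203 and 1817 to 901 and 953. All 12 of these list members that changed in the difference from the EV line were lower in it. Without E2F1 12 h replicate 1, 7 members fell, and without E2F1 0 h replicate 2 no member rose.

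The matrix and the machinery that anchors cells to it were lowered broadly. Of 37 collagen and fibrillar matrix genes 29 fell and 2 rose (78.4% lower, median -0.62), with both 12 h libraries below both 0 h libraries in 35 (41.1% of all genes did so, and 40.2% had both above). Col1a1, the main chain of fibrillar collagen I, fell from 196151 and 175500 normalized counts to 91191 and 99808 (log2 change -0.96, SE 0.18), Col11a1 from 609 and 539 to 176 and 150 (-1.81, SE 0.22) and Col5a3 from 1661 and 1368 to 517 and 618 (-1.41, SE 0.17). In the EV line 1 of the 37 was called, higher, and 22 were called lower in the difference. At 6 h the median of the list was -0.24. Among 34 matrix proteases, inhibitors and crosslinking enzymes 16 fell and 4 rose (47.1% and 11.8%). The protease inhibitor Timp3 fell from 14053 and 18086 to 6022 and 6606 and Adamts12 from 1886 and 2101 to 703 and 775, whereas the protease Adam12 rose from 545 and 439 to 2088 and 1613 (1.91, SE 0.24).

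Of 34 genes of the actin cytoskeleton and adhesion 20 fell and 7 rose (58.8% and 20.6%, median -0.41). The filamin Flnc fell from 25981 and 29311 to 7203 and 8308 (log2 change -1.83, SE 0.14, adjusted p 3.01e-09 by limma) and the myosin light chain Myl9 from 423 and 646 to 115 and 157 (-1.95, SE 0.24). Tagln2 rose from 5358 and 5678 to 19516 and 20289 (1.85, SE 0.16) and the alpha-actinin Actn4 from 16547 and 16580 to 43001 and 39198 (1.31, SE 0.10). Smooth muscle actin, Acta2, fell by 1.02 on the log2 scale in the E2F1 line and by 1.30 in the EV line, and the difference between them, 0.28, was not called (adjusted p 0.242). Serum gave another picture in the EV line at 12 h: Acta2 stood at 51992 and 49641 against 6729 and 8028 at 0 h, Myl9 at 1153 and 726 against 188 and 241, and Flnc at 24173 and 28269 against 27130 and 22615.

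YAP and TAZ act with TEAD factors on genes that respond to cell spreading. Of their 24 measured targets 14 fell and 3 rose (58.3% and 12.5%, median -0.41), and 1 rose under quantile normalization. Ajuba fell from 3649 and 3723 to 1606 and 1763 (log2 change -1.13, SE 0.13) and the ligand Tgfb2 from 337 and 298 to 83 and 96 (-1.82, SE 0.31). The matricellular genes that usually report this pathway moved in the EV line too. Ccn1 changed by -1.05 in the E2F1 line and by -1.82 in the EV line, and Ccn2 by -0.81 (adjusted p 0.0575) and -2.10 (adjusted p 0.00349). The E2F1 change of Ccn2 lay above the EV change by 1.29 (adjusted p 0.042), and the call of Ccn1 was lost without E2F1 0 h replicate 2 (adjusted p 0.179) or E2F1 12 h replicate 2 (0.0828).

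Receptors for growth factors fell in 17 of 25 cases and rose in 2 (68.0% lower, median -0.49), and 13 were called lower in the difference. Of the PDGF receptors, Pdgfra went from 46438 and 50638 normalized counts to 19279 and 22649 (log2 change -1.21, SE 0.19) and Pdgfrb from 7869 and 7204 to 3261 and 3109 (-1.24, SE 0.10). Ntrk3 and Ednra changed by -1.42 and -1.22, but without single libraries their adjusted p reached 0.0599 and 0.168. Without E2F1 12 h replicate 1 or E2F1 0 h replicate 2, or under quantile normalization, 1 receptor gene rose. Of 22 ligands 10 fell and 4 rose, among them Efnb1 (-1.22, SE 0.24), Bdnf (-0.88, SE 0.13) and, rising, Vegfb (0.83, SE 0.12), with 2 rises without E2F1 0 h replicate 2. Of the 22 ligands 45.5% fell and 18.2% rose. Fibroblast markers as a list fell in 11 of 13 cases (84.6%), and their summed level went from 1128011 and 1140270 to 715640 and 742109.

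Genes that growth factors induce within minutes were mostly lower at 12 h. Of 28 immediate early genes 16 fell and 4 rose (57.1% and 14.3%, median -0.52), and 10 were called lower in the difference and 3 higher. Egr3 fell from 1059 and 1787 to 398 and 332 (log2 change -1.92, SE 0.35), but its difference from the EV line was not called (-1.09, adjusted p 0.0774). Myc fell from 2399 and 2434 to 1365 and 1116 (-0.97, SE 0.15). Fos was at 128 and 70, then 127 and 130 (adjusted p 0.409). Egr1 changed by -0.55 in the E2F1 line, not called without E2F1 12 h replicate 2 (adjusted p 0.224), E2F1 0 h replicate 2 (0.42) or the 2 h libraries (0.062), and by -1.21 in the EV line (adjusted p 0.00555). The orphan nuclear receptors went the other way: Nr4a2 rose from 182 and 106 to 336 and 241 at 6 h and 814 and 690 at 12 h (2.42, SE 0.22), and Nr4a3 from 17 and 4 to 156 and 64 (3.41, SE 0.61). The ERK feedback genes, the negative regulators that this kinase induces, were split at 6 higher and 3 lower of 18 (33.3% and 16.7%). Among them were Dusp5 at -1.58 (SE 0.34, difference from the EV line -0.63, adjusted p 0.289 by limma), Spred3 at -1.43 (SE 0.15) and the ETS factor Etv4 at 1.34 (SE 0.24). Falls numbered 5 without E2F1 0 h replicate 1, without the serum libraries and with equal totals.

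Developmental pathways were mixed, as all genes were (31.8% higher and 29.7% lower). Of 34 TGF-beta and BMP genes 11 rose and 11 fell, the decoy receptor Bambi rising from 66 and 61 to 264 and 268 (log2 change 2.05, SE 0.30) and the latent TGF-beta binding protein Ltbp2 falling from 3281 and 4074 to 1365 and 1758 (-1.24, SE 0.17). Without E2F1 12 h replicate 1, 7 of them rose. Of 15 Notch genes 3 rose and 6 fell, the target Hes1 rising from 139 and 83 to 372 and 320 (1.67, SE 0.32) beside Neurl1b. Of 27 Wnt genes 7 rose and 11 fell (7 without E2F1 12 h replicate 2), with the co-receptor Lrp5 rising from 4164 and 4039 to 10462 and 9879 (1.31, SE 0.11) and Porcn, which lipidates Wnt ligands, falling from 172 and 278 to 55 and 88 (-1.64, SE 0.29). Of 10 Hedgehog genes 2 rose and 4 fell (2 without E2F1 0 h replicate 2). Gli2, a transcription factor of that pathway, rose from 843 and 730 to 2106 and 2021, and in the EV line rose from 770 and 649 to 2388 and 2098. The difference of its log2 changes was -0.27 (SE 0.27, adjusted p 0.431), so Gli2 rose with doxycycline in both lines, and a difference between its rises was not detected.

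**Figure D3:**
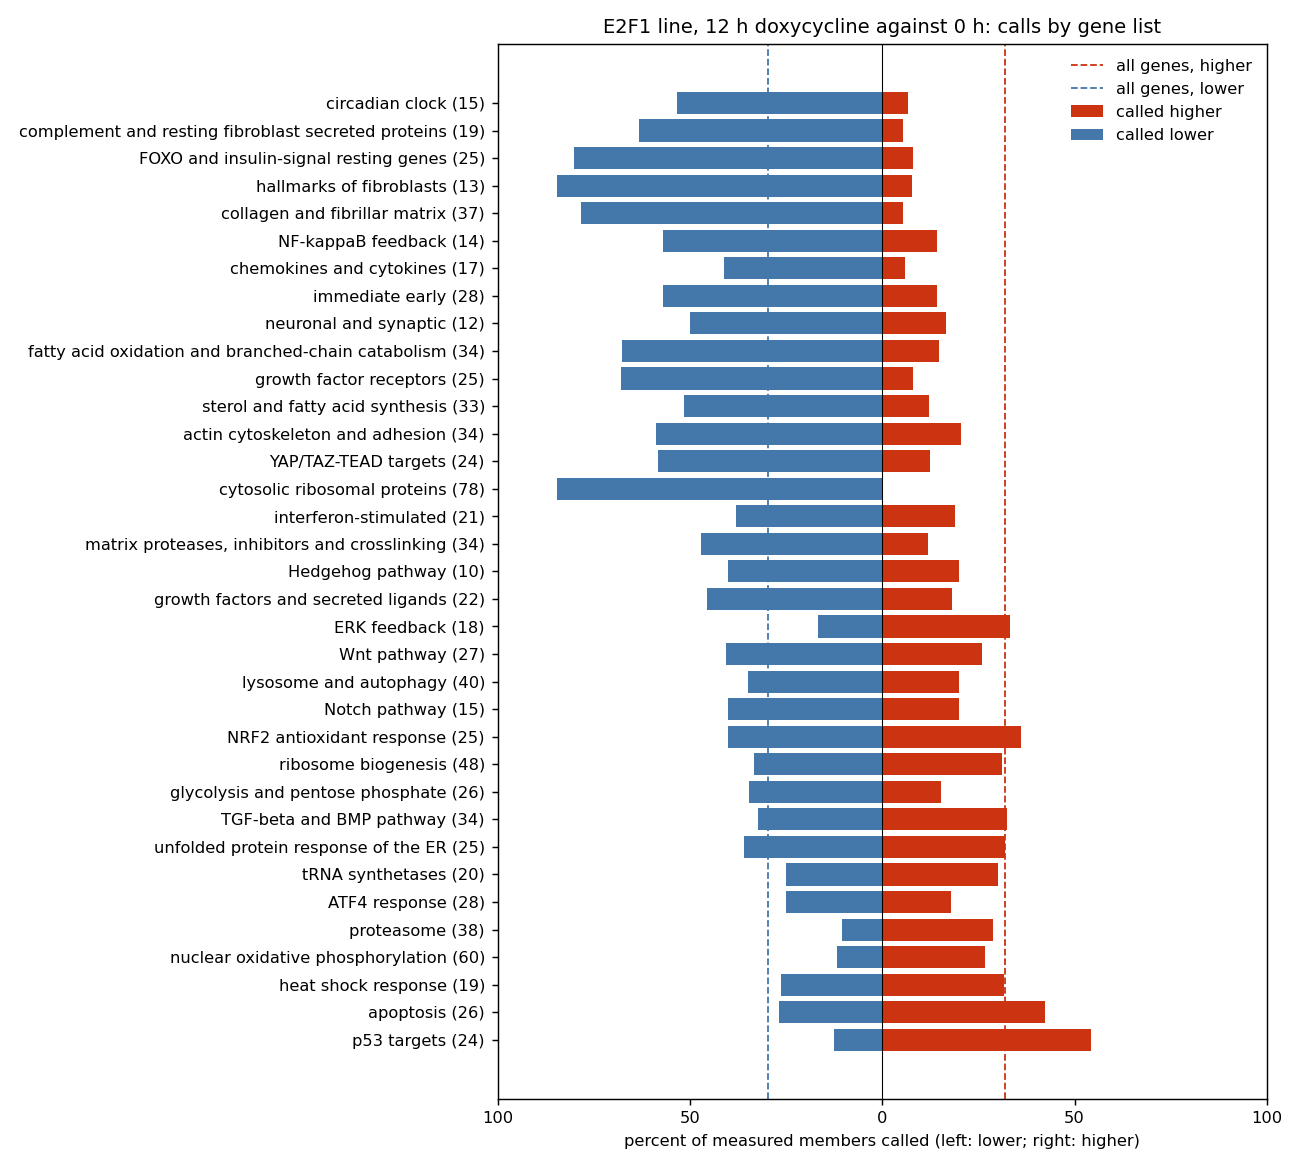
Percent of measured members called higher (right, red) and lower (left, blue) after 12 h of doxycycline in the E2F1 line, for each gene list outside the cell cycle with at least 10 measured members (number in parentheses), ordered by median log2 change; dashed lines are the 31.8% and 29.7% of all genes. FOXO, collagen, fibroblast and ribosomal protein lists extend furthest to the left, and p53 targets furthest to the right.

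Among metabolic genes, catabolic ones fell in the E2F1 line and sterol synthesis fell in both lines. Breakdown of fatty acids and branched-chain amino acids fell in 23 of 34 genes and rose in 5 (67.6% lower, median log2 change -0.50), and the difference from the EV line was called lower in 20. Bckdha, a subunit of the branched-chain ketoacid dehydrogenase, fell from 468 and 484 normalized counts to 164 and 197 (-1.40, SE 0.18), and the leucine pathway carboxylase subunits Mccc1 and Mccc2 fell from 629 and 692 to 278 and 244 and from 263 and 217 to 73 and 116. In the EV line 1 of the 34 was called.

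Sterol and fatty acid synthesis fell in 17 of 33 genes and rose in 4 (51.5% lower, median -0.43), but 18 of the 33 fell in the EV line too, with a median of -0.54. EV calls rest on single libraries, as given above, and these 18 would not all hold without EV 0 h replicate 2. The mevalonate enzymes Mvd and Mvk fell by 1.25 and 1.00 on the log2 scale in the E2F1 line and by 0.65 and 0.77 in the EV line, and Hmgcs1 by 0.76 and 0.66. The difference between the lines was called lower in 1 of the 33 and higher in 8. Fads2, a fatty acid desaturase, rose from 10130 and 9553 to 19632 and 19269 in the E2F1 line (0.98, SE 0.10) and fell from 9242 and 9851 to 7393 and 7005 in the EV line.

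Cytosolic ribosomal proteins were mostly lower by a small amount: 66 of 78 fell and 0 rose (84.6% lower, median -0.38, range -0.87 to 0.33). Rpl13a fell from 2804 and 2321 to 1349 and 1435 (log2 change -0.87, SE 0.11) and Rpl30 from 3092 and 2733 to 1851 and 1801 (-0.67, SE 0.09). This count rests on 1 library, since 21 of the 78 fell without E2F1 12 h replicate 1, and the difference from the EV line (median -0.26) was called lower in 16. Without E2F1 0 h replicate 1, 1 member rose. Many of these genes have pseudogenes with near-identical sequence, and how reads were split between copies is not given in the sources used here. Nuclear genes of oxidative phosphorylation rose in 16 of 60 cases and fell in 7 (26.7% higher against 31.8% of all genes, median 0.05), and 21 were called higher in the difference from the EV line and 1 lower; Cox7a2 rose from 1621 and 1529 to 2652 and 3142 (0.87, SE 0.13). Under quantile normalization 14 rose and 15 fell (median -0.11), and falls numbered 1 without E2F1 12 h replicate 1 and 3 without E2F1 0 h replicate 1.

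Proteasome genes rose in 11 of 38 and fell in 4 (28.9% and 10.5%, against 31.8% and 29.7% of all genes). Rises were led by Psmd13, from 2335 and 2111 to 4639 and 5117 (log2 change 1.13, SE 0.10), and Psmc4 (0.81, SE 0.09), and the activator subunit Psme2 fell (-0.46, SE 0.10). That balance turned under quantile normalization, to 4 higher and 16 lower, and rises numbered 5 without E2F1 0 h replicate 2 and 7 without either 12 h library, while 1 fell without E2F1 0 h replicate 1. Ribosome biogenesis genes were even at 15 higher and 16 lower of 48, against 11 and 27 under quantile normalization, with Nop56 rising from 6049 and 5303 to 11909 and 11580 (1.05, SE 0.08), the polymerase I factor Ubtf rising to 24402 and 23104 at 6 h before 14091 and 14754 at 12 h, and Ddx10 falling by 0.72; 9 fell without E2F1 0 h replicate 1. In glycolysis and the pentose phosphate pathway 4 of 26 rose and 9 fell, among them the regulator Pfkfb3 (-1.65, SE 0.36). Of 20 tRNA synthetases 6 rose (2 without E2F1 0 h replicate 2) and 5 fell (9 under quantile normalization), with Gars rising from 5720 and 5054 to 11191 and 10492 (1.01, SE 0.13).

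**Figure D4:**
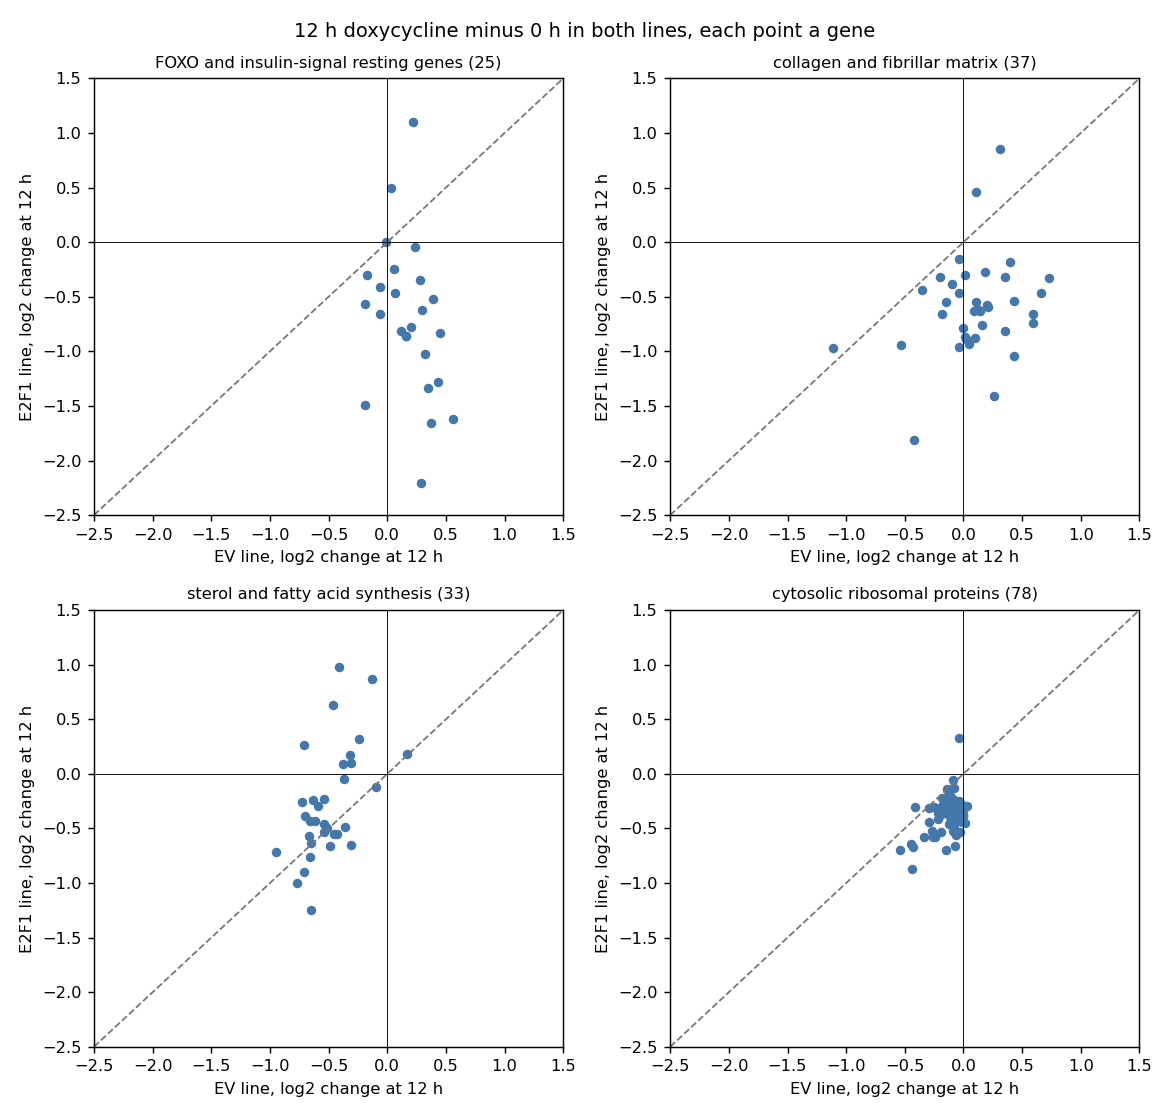
Log2 change after 12 h of doxycycline in the EV line (horizontal) and the E2F1 line (vertical) for the genes of 4 lists, 1 point per gene; the dashed line marks equal changes, and the EV and E2F1 libraries are separate. FOXO and collagen genes lie below the line with EV changes around 0, sterol genes lie along or above the line at EV changes below 0, and ribosomal protein genes lie close to the line, mostly below it.

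Most falling genes were partway down at 6 h, which the 6 h libraries of the E2F1 line show without a test since they share the 0 h libraries. Of the 609 genes that fell at least 2-fold by 12 h, 587 had a 6 h mean between those of 0 and 12 h. Choosing genes by a wide gap between 0 and 12 h favours this. Already at least 2-fold lower at 6 h were 90 of the 609 (14.8%), against 1.38% of all genes. Of the 1038 rises outside the cell cycle lists, 720 had a 6 h mean between those of 0 and 12 h, and 302 were higher at 6 h than at 12 h. Already at least 2-fold higher at 6 h were 614 of the 1038 (59.2%), against 8.65% of all genes.

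Most genes that fell with E2F1 were also lower after serum, the usual signal to leave rest. The serum values are means against EV 0 h with no test, from libraries that share none with the E2F1 comparison. Of the 609 falls, 473 (77.7%, against 47.2% of all genes) were lower after 12 h of serum and 250 (41.1%) at least 2-fold lower, against 8.98% of all genes; 48 were at least 2-fold higher, against 10.3% of all genes. Of the 1038 rises, 372 (35.8%) were at least 2-fold higher with serum. Fbxo32 reached 81 and 91 with serum and Pdgfra 11978 and 8986, below their values with E2F1. Of the 15 largest falls Gm50321 was higher with serum, at 342 and 200 against 82 and 153 at 0 h, and Dhtkd1 stood at 172 and 162 against 191 and 198. Neurl1b, among the leading rises, was at 6 and 0 with serum against 16 and 52. In the EV line given doxycycline 9 of the 609 were at least 2-fold lower, 1.48% against 1.87% of all genes.

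The falling genes differed from the others in sequence as well, which is given as a description. Their longest transcripts had a median GC content of 52.8%, against 49.4% over all genes and 48.3% for the rises outside the cell cycle lists, with 97.0% of the falling genes matched to GENCODE M21. Median gene length was 17.7 kb for the falls, 24.7 kb for these rises and 23.0 kb over all genes. The annotation calls 44 of the 609 falls long noncoding, 22 of the 1038 rises and 310 of all 11208 genes. GC content moves with the direction of change, and its part in the result was not tested.

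The authors' deposited table of changes at 12 h in the E2F1 line lists 510 genes, 435 higher and 75 lower, with a smallest log2 change of 2.00 in either direction. Of these 322 are among the 11208 genes tested here, and all 322 were called in the same direction by limma. The authors' deposited table for the EV line lists 4 genes.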

How the data were processed

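The submitters' processing notes name FastQC, Trimmomatic, HISAT2, featureCounts and DESeq2 and the build mm10, with no versions. The labels' protocols give polyadenylated RNA and 150 bp paired-end reads. The authors deposited normalized counts rounded to whole numbers, treated here as scores and not as raw counts, with totals of 34014608 to 46057140 per library. The authors' deposited tables of log2 fold changes and adjusted p-values were used for 12 h only.

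Limma 3.58.1 in R 4.3.3 was fitted to log2(value + 1) with a mean for each of 11 groups of 2 libraries, a mean-variance trend and Benjamini-Hochberg adjustment over all 11208 genes at a threshold of 0.05. The fit pools the spread of all 22 libraries. The value of 1 read was recovered in 4 of 8 libraries searched and in neither E2F1 12 h library, so no count test was run. Simulated data for this comparison held 11208 genes, of which 200 were changed. There 34 of 34 genes lowered by 2 on the log2 scale were called, 29 of 34 lowered by 1 and 18 of 33 lowered by 0.5. With so few changed genes an adjusted p of 0.05 is harder to reach than in the data, where 6898 genes were called.

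Named genes were the 15 largest rises and falls among called genes whose higher group averaged at least 50, with non-overlapping libraries and no place in the cell cycle lists, up to 4 called members per list, and a short fixed set of pathway genes. The comparison, lists and rule were chosen with earlier results of these data known. Alternatives were a pseudocount of 8, a mean of at least 500, quantile normalization, equal totals, a replicate block, smaller sets of libraries, a 2-fold minimum and each library left out. Some genes of the apoptosis, sterol and epithelial lists are not reported here by name.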

Additional observations from a re-analysis of the deposited data

Results flagged for a closer look

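The 12 h changes of the E2F1 and EV lines differed by limma's test of the difference in 3059 genes that were higher in the E2F1 line and 2606 that were lower. Among the genes chosen for naming, 6 were called in both lines in opposite directions. Esco2, a cohesin acetyltransferase, differed by 5.22 on the log2 scale, going from 469 and 443 normalized counts to 5354 and 4774 in the E2F1 line and from 211 and 421 to 70 and 110 in the EV line. Cgas differed by 2.93, standing at 225 and 241 in the EV line at 12 h against 308 and 422 at 0 h. Etv4 differed by 2.62 and Bambi by 3.34, and both fell in the EV line by over 1 on the log2 scale (Etv4 by -1.28, Bambi by -1.29). Nop56 differed by 1.55 and Fads2 by 1.39, with EV changes of -0.50 and -0.41. Over all genes, 293 were called higher in the E2F1 line and lower in the EV line, and 34 the reverse, with EV calls that rest on single libraries as given above.

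The authors' deposited table for 12 h in the E2F1 line also lists 135 genes as higher and 53 as lower that are outside the table of normalized counts, so their values per library are not analysed here. In the authors' deposited table Stox1 has a log2 change of 7.80, Vegfc 5.50, Hey1 5.49 and Foxj1 4.98. Among the falls of the authors' deposited table are Camk1g at -7.01, Syt17 at -6.51 and the noncoding RNA Carmn at -3.29. These 7 genes were chosen after their values were seen.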

How the results depend on the processing

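With both replicates kept, 1450 of 1466 values of named genes kept their direction and side of the threshold, 4 lost their call, 10 gained one and 2 changed sign; without 1 library these numbers were 715, 36, 4 and 5. Sign changes were in genes that were not called: Atf4 was at -0.12 under quantile normalization, -0.00 with equal totals, and from -0.10 to 0.20 without single libraries. Hsf1 ran from -0.08 to 0.01 and Hmox1 from -0.92 to 0.13 without single libraries. With a 2-fold minimum the calls numbered 1802 in the E2F1 line, 170 in the EV line and 2119 in the difference, fewer by construction. Fitted on the groups compared alone, and so on fewer samples, the EV line gave 77. Without 1 library each the counts ran from 5847 to 6149 in the E2F1 line, from 26 to 803 in the EV line and from 4912 to 5419 in the difference. Of 640 counts of list members 27 moved by over 1.5 times with both replicates kept.

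Replicate numbers are shared across groups, but the labels give no common origin. Deviations of same-numbered libraries correlated by 0.142 between 0 h and 12 h in the E2F1 line and by 0.311 in the EV line. Between the lines they correlated by 0.092 at 0 h and by 0.238 after 12 h of doxycycline. With the replicate block 6993 genes were called in the E2F1 line, 517 in the EV line and 5791 in the difference. The fit without the 2 h libraries was chosen after seeing the data; it gave 3527 higher and 3231 lower in the E2F1 line. The number of libraries limits precision. Of genes raised by 0.5 on the log2 scale in simulated data for the E2F1 comparison on 11208 genes, 11 of 33 were called. Only 200 genes were changed there, which also makes a call harder to reach than in the data.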

Other observations

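Of 17 measured chemokines, cytokines and prostaglandin genes 7 fell and 1 rose after 12 h in the E2F1 line (median log2 change -0.55). These shares were 41.2% and 5.9%, against 29.7% and 31.8% of all genes, and 4 members were called lower in the difference from the EV line. Ptges, the synthase of prostaglandin E, fell from 3186 and 3243 normalized counts to 1781 and 1885 (log2 change -0.81, SE 0.14), and its difference was -0.82 (adjusted p 0.00177 by limma). The cyclooxygenase gene Ptgs2 changed by -1.12 in the E2F1 line and by -1.06 in the EV line (adjusted p 0.0909 there). Its call in the E2F1 line was lost without E2F1 12 h replicate 2 (adjusted p 0.182) or E2F1 0 h replicate 1 (0.0643), and no member of the list rose without E2F1 12 h replicate 1 or E2F1 0 h replicate 1.

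Genes of other tissues were mostly outside the table: 6 of 34 epithelial and 12 of 34 neuronal genes were measured. Beside Ptpru and Grhl1, which rose, plakoglobin, Jup, fell from 4270 and 4632 to 2156 and 2476 (-0.94, SE 0.09). Among neuronal genes the microtubule protein Map2 rose from 216 and 250 to 1089 and 944 (2.12, SE 0.29). The synaptic adhesion gene Nlgn2 fell from 6045 and 6370 to 2817 and 3184 (-1.05, SE 0.10), and 6 of the 12 fell against 2 that rose. Of 10 fat cell markers 2 were measured, and both rose: Adipor2 by 0.70 and Lpl by 0.71, the latter with a change of 0.72 in the EV line.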
